A study of Mus musculus with 12 samples.

Results

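Aminoacyl-tRNA synthetases and their scaffold proteins were followed at the mRNA level across 4 groups of mouse B cells. The genes were taken from the deposited expression table by symbol: every row whose Entrez ID maps to a one-letter synthetase symbol ending in "ars", with or without the numeral 1 or 2, and to Eprs, Farsa, Farsb, Aimp1, Aimp2 or Eef1e1. This gave 40 of the 9842 listed genes, and all 40 mouse symbols of the RefSeq gene table that meet the rule were listed. They comprise 20 cytosolic enzymes, 17 mitochondrial enzymes and 3 scaffold proteins of the multisynthetase complex.

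The eMZB_KO and eMZB_WT groups were marginal zone B cells obtained from splenic transitional B cells by 3 days of culture with the cytokine BAFF and the Notch ligand DL1, then sorted for B220+ cells positive for CD21 and CD1d. The TrB_KO and TrB_WT groups were unstimulated transitional B cells enriched from spleen with magnetic beads and sorted for B220+ cells positive for CD93. Both gates left out cells with Thy1.1, F4/80 or CD11b, markers of T cells and myeloid cells. KO stands for LSD1 knockout and WT for wild type; LSD1 is a histone lysine demethylase encoded by Kdm1a. All mice were female C57BL/6J, and each group held 3 libraries made from 2000 cells each. The sources used here do not give the age of the mice, or the promoter or Cre line behind the knockout. Because eMZB cells differed from TrB cells in cell type, culture, stimulation and sorting gate at once, these cannot be told apart in any eMZB against TrB comparison. The labels do not say whether replicates came from separate animals, so p-values reflect library-to-library spread that could be partly technical.

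Each aminoacyl-tRNA synthetase joins one amino acid to its matching tRNAs, the step that sets the reading of the genetic code. Mammalian cells keep separate nuclear genes for the cytosolic and the mitochondrial enzyme of most amino acids, whereas Gars and Kars each encode both forms. In the cytosol, several of the enzymes assemble with the scaffold proteins AIMP1, AIMP2 and AIMP3 (the product of Eef1e1) into the multisynthetase complex. When amino acids run short or other stresses strike, the kinases that phosphorylate the initiation factor eIF2 raise translation of the transcription factor ATF4, whose known targets include amino acid transporters, serine and asparagine synthesis enzymes and many cytosolic synthetases. Activated B lymphocytes increase protein synthesis, which draws on charged tRNA.

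Expression is given as scaled FPKM, the deposited FPKM (fragments per kilobase of gene length, per unit of library depth) divided by a factor for each library that aligns the typical gene (median of ratios). Read totals ran between 7.24 and 19.35 M per library. The reads within listed genes made up 27.8 to 41.7% of the total in eMZB libraries and 16.7 to 20.9% in TrB libraries, except for TrB_KO replicate 3 with 61.6%. The members were covered by 27 reads (Pars2) to 12331 reads (Vars) per library. Kdm1a had 2.53 to 2.66 scaled FPKM in the eMZB_KO libraries against 7.53, 8.63 and 4.68 in the eMZB_WT libraries, and 2.56 to 3.35 in the TrB_KO libraries against 8.54, 7.93 and 3.47 in the TrB_WT libraries. The log2 change was -1.10 (limma adjusted p = 0.148) in eMZB and -0.87 (limma adjusted p = 0.249) in TrB cells. The libraries labelled eMZB_WT replicate 3 and TrB_WT replicate 3 thus had less Kdm1a mRNA than the others with their label, and results on LSD1 loss are given with and without both. Cr2, which encodes CD21, was higher in eMZB than in TrB cells of either genotype, and the transitional marker Cd93 was lower. The limma adjusted p was 3.71e-06 or less for each, and both directions match the sorting gates. Cd1d1, which encodes CD1d, overlapped between the WT groups, at 22.5 to 23.0 scaled FPKM in eMZB_WT against 19.8 to 24.8 in TrB_WT. In KO cells its lowest eMZB_KO value, 25.4, lay above its highest TrB_KO value, 22.9. Cr2 was also higher in TrB_KO than in TrB_WT (log2 change 0.55, limma adjusted p = 0.0469).

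Changes were tested with limma on log2(scaled FPKM + 1) across all 9842 genes and all 12 libraries, and a gene was called when its Benjamini-Hochberg adjusted p was under 0.05. The added 1 makes these log2 changes understate the fold change of low genes.

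Cytosolic synthetase mRNAs were higher in eMZB cells than in TrB cells in both genotypes, while the mitochondrial enzymes had a median change close to that of all genes. Of the 40 members, 15 rose and 3 fell in eMZB_KO against TrB_KO, where 14.2% of all genes rose and 13.2% fell. In eMZB_WT against TrB_WT, 15 members rose and 1 fell, where 14.6% of all genes rose and 12.7% fell. The 15 that rose were the same genes in both genotypes: Aars, Cars, Dars, Eprs, Gars, Iars, Kars, Lars, Mars1, Nars, Rars, Sars, Tars, Yars and the scaffold gene Aimp2. By location, 14 of 20 cytosolic enzymes rose in both comparisons, with median log2 changes of 0.91 between the KO groups and 0.92 between the WT groups. No mitochondrial enzyme rose among the 17, and their median log2 changes were -0.02 and -0.01, beside a median of -0.01 and -0.00162 over all genes. The KO and the WT comparison share no library, but both use the same estimate of spread. In bulk RNA, more mRNA per cell and more cells of a type cannot be told apart.

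**Figure D1:**
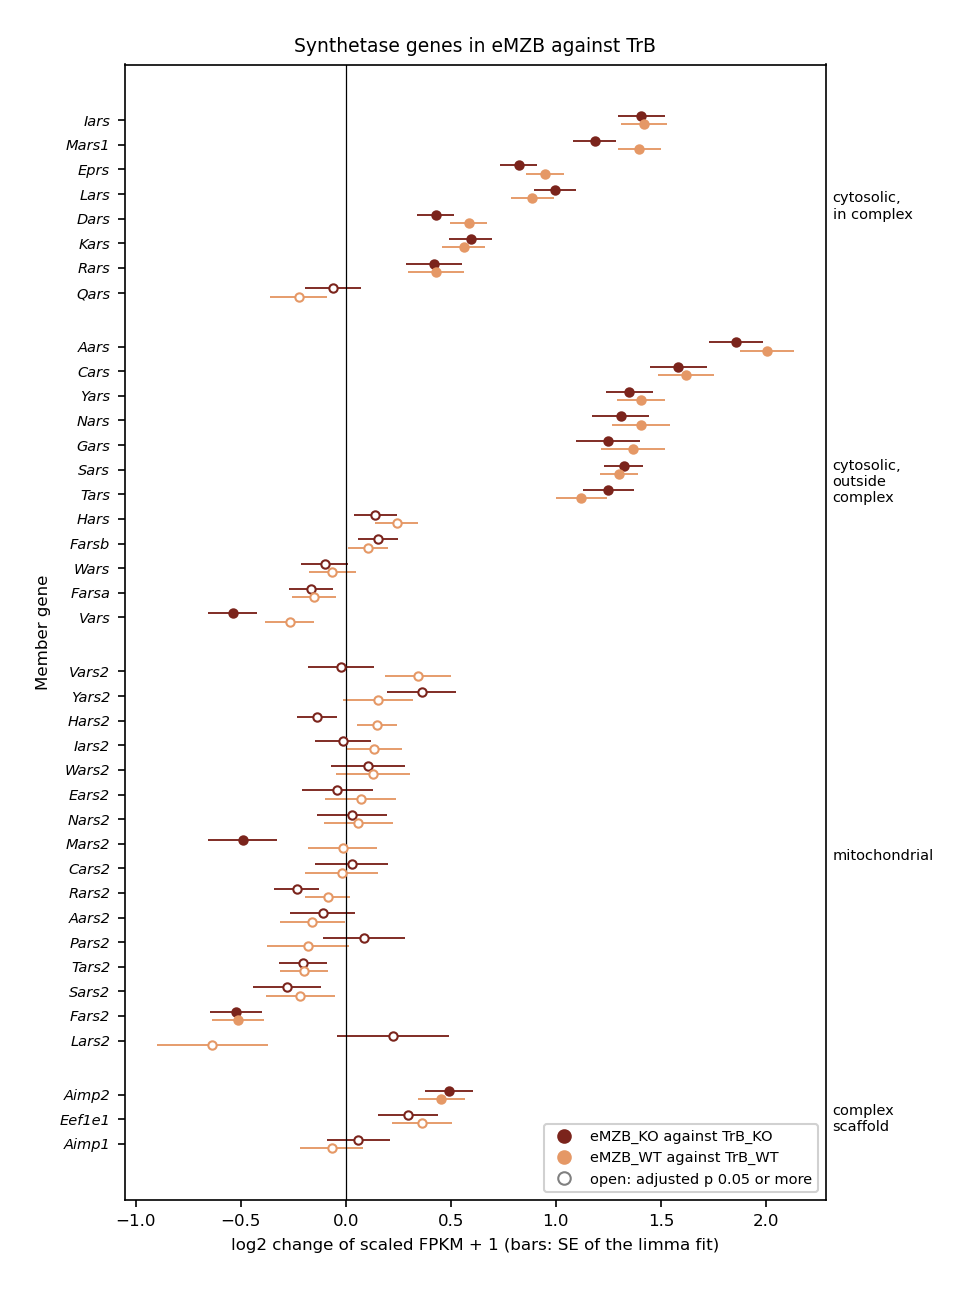
Log2 change (x axis) of 39 genes (y axis, by location) in eMZB_KO against TrB_KO (dark) and eMZB_WT against TrB_WT (light), with the SE of the limma fit; filled points have an adjusted p under 0.05. The filled points to the right of 0 belong to 14 cytosolic enzymes and Aimp2, while the mitochondrial enzymes plotted lie between -0.63 and 0.36.

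The median level of the 20 cytosolic enzymes was 16.8 scaled FPKM in eMZB_KO and 16.2 in eMZB_WT, against 9.34 in TrB_KO and 8.46 in TrB_WT. For the 17 mitochondrial enzymes the medians were 2.82, 2.77, 2.86 and 2.50 scaled FPKM in the same order of groups. The 2 catalytic folds of the synthetases were represented alike: 6 of 9 class I and 7 of 10 class II cytosolic enzymes rose in each genotype, and Eprs, which carries both folds, rose as well.

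Of the enzymes outside the multisynthetase complex, 7 of 12 rose in each genotype, with median log2 changes of 1.25 (KO) and 1.21 (WT). Aars, the alanine enzyme, in which the mouse sticky mutation weakens proofreading, had the largest change of all members in both comparisons. Its level was 26.8, 26.6 and 28.4 scaled FPKM in eMZB_KO libraries against 5.40, 7.03 and 8.23 in TrB_KO libraries, and 25.6, 23.0 and 28.3 in eMZB_WT libraries against 6.09, 5.80 and 5.002 in TrB_WT libraries. Every eMZB library lay above every TrB library, and the means were 3.96 times as high in KO and 4.55 times as high in WT cells. The log2 changes were 1.86 (SE 0.13, limma adjusted p = 1.03e-06) and 2.004 (SE 0.13, limma adjusted p = 4.41e-07). Exons of Aars overlap those of Exosc6 on the same strand over 1326 bases in the GENCODE annotation, and Exosc6 was not called, with log2 changes of 0.57 (limma adjusted p = 0.0822) and 0.32 (limma adjusted p = 0.314).

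Cars, which charges cysteine tRNA, came next. It had 17.96, 17.1 and 16.1 scaled FPKM in eMZB_KO against 4.71, 3.96 and 6.71 in TrB_KO libraries, and 18.3, 16.5 and 17.8 in eMZB_WT against 4.83, 4.99 and 5.25 in TrB_WT libraries. The lowest eMZB library stood well above the highest TrB library, and the log2 changes were 1.58 (SE 0.13, limma adjusted p = 3.97e-06) in KO and 1.62 (SE 0.13, limma adjusted p = 3.04e-06) in WT cells. Yars charges tyrosine tRNA, and fragments of the human enzyme are known to act as cytokines. It had 17.1, 14.95 and 15.1 scaled FPKM in eMZB_KO against 5.05, 5.89 and 5.73 in TrB_KO libraries, and 16.2, 15.5 and 16.4 in eMZB_WT against 4.78, 4.96 and 6.71 in TrB_WT libraries. This is 2.83 and 2.92 times the TrB mean, or log2 changes of 1.35 and 1.40 (SE 0.11, limma adjusted p = 3.95e-06 and 2.57e-06).

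Nars, the asparagine enzyme, was the highest of the cytosolic enzymes after Vars in both eMZB groups, whereas Farsb and Wars lay above it in both TrB groups. Its levels were 30.4, 31.6 and 35.8 scaled FPKM in eMZB_KO against 14.5, 13.9 and 9.75 in TrB_KO libraries, and 34.2, 30.04 and 33.8 in eMZB_WT against 12.1, 10.2 and 12.98 in TrB_WT libraries. No eMZB library lay below 30.04 scaled FPKM and no TrB library exceeded 14.5, with log2 changes of 1.31 and 1.40 (SE 0.14, limma adjusted p = 2.16e-05 and 1.14e-05). Gars charges glycine tRNA in both compartments, and dominant mutations in the human gene cause a peripheral neuropathy. It measured 29.8, 29.5 and 30.4 scaled FPKM in eMZB_KO against 11.2, 11.96 and 12.9 in TrB_KO libraries, and 29.2, 27.6 and 25.0 in eMZB_WT against 11.3, 12.2 and 7.02 in TrB_WT libraries. The library labelled TrB_WT replicate 3 was the lowest of the 12, and the groups did not overlap, with log2 changes of 1.25 and 1.37 (SE 0.15, limma adjusted p = 7.29e-05 and 3.33e-05).

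Sars charges serine tRNA and also loads serine onto selenocysteine tRNA. Its values were 16.2, 15.9 and 17.3 scaled FPKM in eMZB_KO against 6.25, 5.88 and 5.80 in TrB_KO libraries, and 15.1, 14.8 and 18.2 in eMZB_WT against 5.73, 6.12 and 5.82 in TrB_WT libraries. The TrB libraries lay within a narrow band, all eMZB libraries lay above it, and the log2 changes were 1.32 and 1.30 (SE 0.09, limma adjusted p = 1.03e-06 and 9.48e-07). Tars, the threonine enzyme, had 20.03, 23.3 and 22.5 scaled FPKM in eMZB_KO against 7.46, 10.99 and 7.80 in TrB_KO libraries, and 19.8, 19.4 and 20.7 in eMZB_WT against 8.30, 8.79 and 8.84 in TrB_WT libraries. It too showed no overlap, with log2 changes of 1.25 and 1.12 (SE 0.12, limma adjusted p = 1.07e-05 and 2.54e-05).

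**Figure D2:**
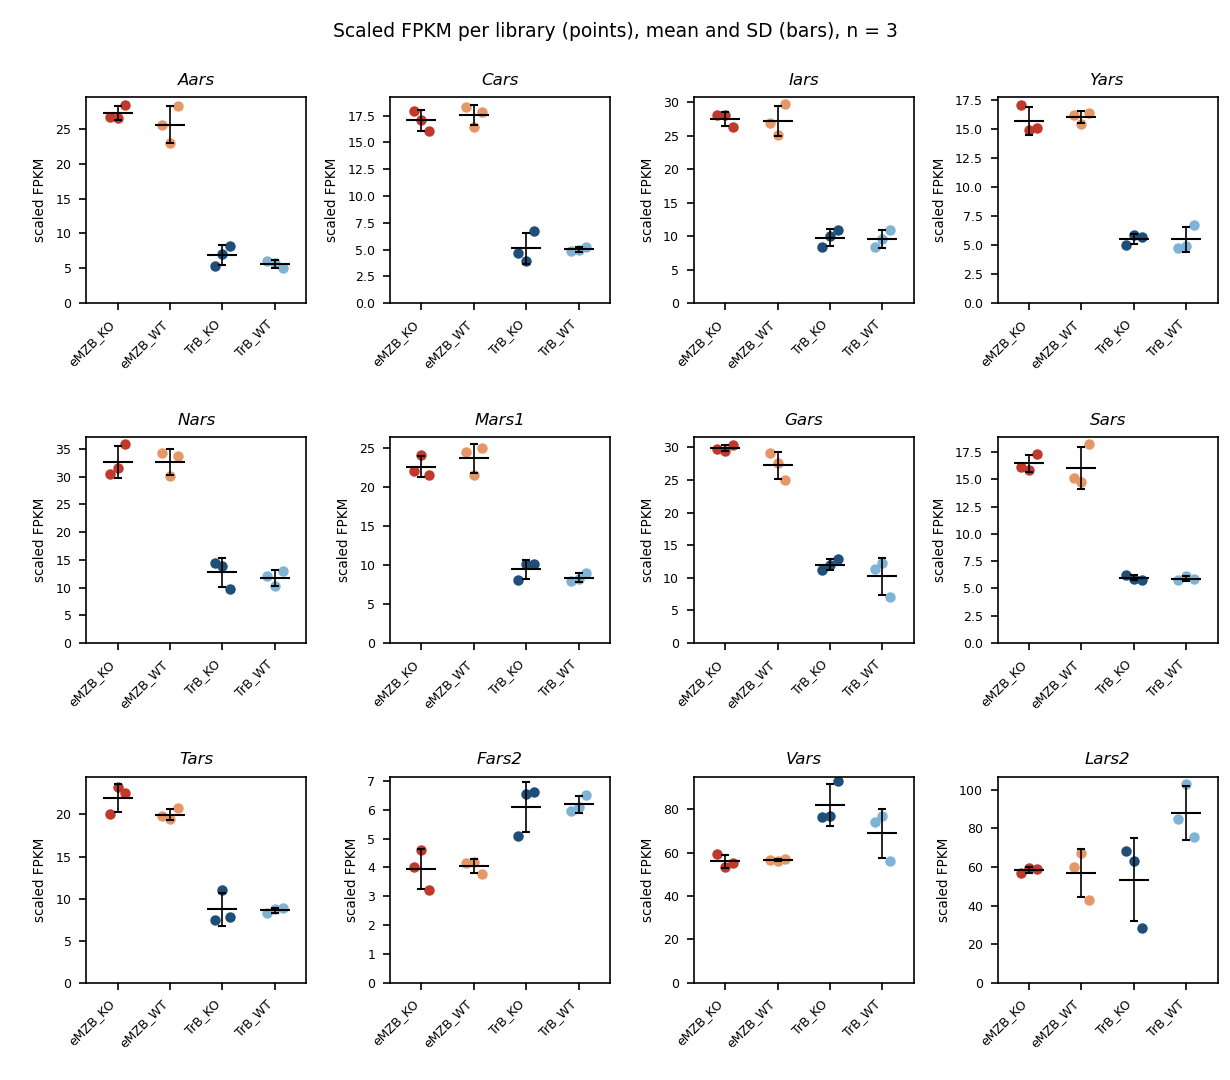
Scaled FPKM (y axis, linear, from 0) in every library of the 4 groups (x axis) for the 9 enzymes with the largest increases and for Fars2, Vars and Lars2; points are libraries, the long bar is the mean and the whiskers are the SD (n = 3). For the first 9 genes all 6 eMZB libraries lie above all 6 TrB libraries, whereas Fars2 runs the other way and Lars2 is spread widely in TrB_KO.

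Since ATF4 acts through a short composite element, the promoters of the members were searched for its core. A window from 250 bases before to 50 bases after a transcript start was held by the RefSeq promoter table (GRCm38.p6) for 30 of the 40 genes. The core TGATGNAA, searched on both strands, was present in 5 of these 30: Aars (with 2 matches), Gars, Iars, Tars and Yars. All 5 belonged to the 11 genes with a window that rose, and none to the other 19. By window, 5 of the 32 windows of these 30 genes held the core, beside 3.97% of all 32851 windows in the table. The E-box CACGTG, the palindrome bound by MYC and related factors, was present in Aars, Ears2, Farsb, Iars and Tars, that is 3 of the 11 and 2 of the 19. By window, it was present in 5 of the same 32, beside 7.15% of all windows. A match describes letters in a window and does not show binding. The windows of 4 of the genes with an ATF4 core are shown because these genes were among those with the largest increases; capitals mark the ATF4 core, on either strand, and the E-box. All 4 lie on the plus strand of GRCm38.p6: Aars at chr8:111033592-111033891, Iars at chr13:49681880-49682179, Yars at chr4:129189653-129189952 and Gars at chr6:55037751-55038050.
Aars: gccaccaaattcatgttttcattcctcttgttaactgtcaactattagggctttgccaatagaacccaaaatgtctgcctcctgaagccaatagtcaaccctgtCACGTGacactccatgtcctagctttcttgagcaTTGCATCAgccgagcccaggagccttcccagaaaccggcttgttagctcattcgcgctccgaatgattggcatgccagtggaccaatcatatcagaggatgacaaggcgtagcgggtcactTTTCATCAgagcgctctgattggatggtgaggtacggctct
Iars: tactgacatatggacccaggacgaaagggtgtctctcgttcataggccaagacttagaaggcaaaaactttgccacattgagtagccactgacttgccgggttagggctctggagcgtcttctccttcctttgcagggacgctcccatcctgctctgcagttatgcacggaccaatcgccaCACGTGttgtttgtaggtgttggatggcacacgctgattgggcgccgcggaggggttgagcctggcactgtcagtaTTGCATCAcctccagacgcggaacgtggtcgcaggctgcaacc
Yars: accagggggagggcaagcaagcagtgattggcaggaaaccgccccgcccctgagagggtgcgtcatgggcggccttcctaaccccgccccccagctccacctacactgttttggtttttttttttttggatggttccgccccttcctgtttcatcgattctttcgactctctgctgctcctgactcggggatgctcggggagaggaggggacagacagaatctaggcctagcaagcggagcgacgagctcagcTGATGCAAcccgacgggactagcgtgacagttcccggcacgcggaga
Gars: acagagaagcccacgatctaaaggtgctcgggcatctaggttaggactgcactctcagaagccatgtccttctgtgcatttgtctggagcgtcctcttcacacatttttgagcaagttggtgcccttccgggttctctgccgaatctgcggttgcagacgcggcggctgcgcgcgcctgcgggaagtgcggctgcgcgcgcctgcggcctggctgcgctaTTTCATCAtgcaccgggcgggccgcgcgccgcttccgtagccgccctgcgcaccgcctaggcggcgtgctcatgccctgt
Counting the first transcribed base of each window as 1, with -1 just before it, the cores begin at -112 and 10 in Aars, at 8 in Iars, at 4 in Yars and at -30 in Gars. They thus lie close to or within the start of the transcript used for each window, and the E-box lies upstream of that start in Aars (-146) and Iars (-69). The RefSeq gene span begins at chr8:111027778 for Aars, upstream of its whole window, and at chr4:129189734 for Yars, within its window. The transcript starts used for Aars and Yars therefore lie inside the gene span, not at its outer end.

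Within the multisynthetase complex, 7 of the 8 enzymes rose in both genotypes, with median log2 changes of 0.71 (KO) and 0.74 (WT). Iars, which charges isoleucine tRNA, changed most. It had 28.1, 28.1 and 26.3 scaled FPKM in eMZB_KO against 8.43, 10.04 and 10.9 in TrB_KO libraries, and 26.8, 25.2 and 29.7 in eMZB_WT against 8.32, 9.53 and 10.9 in TrB_WT libraries. The groups were far apart, at 2.81 and 2.84 times the TrB mean, with log2 changes of 1.41 and 1.42 (SE 0.11, limma adjusted p = 2.45e-06 and 1.98e-06). Of the 31-base words in Iars transcripts, 14.5% also occur in the transcript of the gene model Gm4849, so part of its reads may not be unique. Mars1 charges both the initiator and the elongator methionine tRNA. It had 22.1, 24.2 and 21.6 scaled FPKM in eMZB_KO against 8.06, 10.1 and 10.1 in TrB_KO libraries, and 24.5, 21.5 and 25.0 in eMZB_WT against 7.92, 8.196 and 8.99 in TrB_WT libraries. All eMZB values exceeded all TrB values, with log2 changes of 1.18 and 1.40 (SE 0.10, limma adjusted p = 4.54e-06 and 1.13e-06). The libraries do not mark strand, and Mars1 overlaps the opposite-strand stress gene Ddit3 over 68 exon bases, so reads there cannot be assigned to one of them. Ddit3 rose as well, with log2 changes of 1.08 (limma adjusted p = 0.000866) in KO and 0.91 (limma adjusted p = 0.00277) in WT cells.

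Eprs, the fused glutamate and proline enzyme, ranged over 11.99 to 13.3 scaled FPKM in eMZB_KO against 5.91 to 6.98 in TrB_KO, and 11.4 to 12.9 in eMZB_WT against 5.63 to 5.99 in TrB_WT, with log2 changes of 0.82 and 0.95 (limma adjusted p = 3.17e-05 and 9.51e-06). Lars, the leucine enzyme that also takes part in leucine sensing by mTORC1, ranged over 16.6 to 17.9 in eMZB_KO against 7.31 to 8.63 in TrB_KO, and 14.4 to 17.97 in eMZB_WT against 7.66 to 9.17 in TrB_WT, with log2 changes of 0.995 and 0.89 (limma adjusted p = 1.80e-05 and 4.25e-05). Neither gene's eMZB libraries overlapped the TrB libraries of the same genotype. The aspartate enzyme Dars, the lysine enzyme Kars and the arginine enzyme Rars changed less, with log2 changes of 0.43, 0.59 and 0.42 in KO and 0.58, 0.56 and 0.43 in WT cells. Rars was near the threshold (limma adjusted p = 0.0326 in KO and 0.0295 in WT cells). Its KO libraries overlapped, and its call was lost without any 1 of TrB_KO replicates 1 or 2 or eMZB_KO replicates 1 or 2 (adjusted p 0.0933 to 0.131), and in WT cells without any 1 of TrB_WT replicates 1 or 2 or eMZB_WT replicates 1 or 2 (adjusted p 0.0822 to 0.0925). In KO cells the call was also lost on the FPKM as deposited (adjusted p = 0.553) and with the 2 KO groups compared alone (adjusted p = 0.0626). It was lost as well with a replicate block fitted to these 2 groups alone (adjusted p = 0.0890). That block assumes that same-numbered libraries are pairs, which the labels do not state. The voom test on reads recovered from the FPKM called Rars in neither genotype (adjusted p = 0.0502 in KO and 0.0658 in WT cells).

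Qars, the glutamine enzyme, was the complex member that did not rise. It had 5.38 to 5.88 scaled FPKM in eMZB_KO against 5.47 to 6.70 in TrB_KO, and 4.21 to 5.82 in eMZB_WT against 5.03 to 7.205 in TrB_WT, with log2 changes of -0.06 (limma adjusted p = 0.782) and -0.22 (limma adjusted p = 0.236). The mRNA levels of the 8 complex enzymes were less even in eMZB cells: the highest was 4.83 times the lowest in eMZB_KO and 5.55 times in eMZB_WT, against 2.29 times in TrB_KO and 1.84 times in TrB_WT. Iars was the highest and Qars the lowest of the 8 in both eMZB groups. The difference in evenness was not tested.

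Of the 3 scaffold genes, Aimp2 was the one called in both comparisons with all libraries in the fit. It had 9.92, 10.99 and 11.1 scaled FPKM in eMZB_KO against 7.79, 8.22 and 6.07 in TrB_KO, and 7.76, 9.78 and 9.06 in eMZB_WT against 6.15, 6.15 and 6.20 in TrB_WT libraries, with log2 changes of 0.49 (limma adjusted p = 0.00663) and 0.46 (limma adjusted p = 0.0102). In WT cells the call was lost without both low-Kdm1a libraries (adjusted p = 0.0559) and in the voom test on reads recovered from the FPKM (adjusted p = 0.0728). Aimp2 shares 487 exon bases with the opposite-strand kinase gene Eif2ak1, whose log2 changes were -0.14 and 0.04. Eef1e1 gave 0.30 and 0.36 (limma adjusted p = 0.152 and 0.0779), and it passed the threshold without TrB_WT replicate 2 in KO cells (adjusted p = 0.0445) and without the library labelled TrB_WT replicate 3 in WT cells (adjusted p = 0.00858). Aimp1, whose product is the precursor of the cytokine EMAP II, gave 0.06 and -0.07 and was not called.

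Besides Qars, the cytosolic enzymes that did not rise were Farsa, Farsb, Hars, Vars and Wars. Farsa and Farsb encode the subunits of the phenylalanine enzyme, and their log2 changes were -0.17 and 0.15 in KO and -0.15 and 0.10 in WT cells. Their levels ranged over 6.68 to 7.18 scaled FPKM for Farsa and 15.5 to 17.1 for Farsb in eMZB_KO against 7.33 to 8.34 and 13.2 to 15.3 in TrB_KO, and over 6.48 to 6.69 and 14.3 to 15.7 in eMZB_WT against 6.37 to 8.80 and 12.9 to 15.8 in TrB_WT. Wars, the tryptophan enzyme, is induced by interferon-gamma in human cells. It ranged over 11.7 to 13.01 in eMZB_KO against 11.9 to 14.7 in TrB_KO, and 12.2 to 12.9 in eMZB_WT against 11.4 to 15.5 in TrB_WT, with log2 changes of -0.10 and -0.06. Hars, the histidine enzyme, ranged over 10.3 to 11.5 in eMZB_KO against 8.39 to 11.2 in TrB_KO, and 10.1 to 10.5 in eMZB_WT against 8.17 to 9.26 in TrB_WT, with log2 changes of 0.14 and 0.24 (limma adjusted p = 0.345 and 0.0971). In WT cells Hars passed the threshold when TrB_KO replicate 3 was left out of the shared fit (adjusted p = 0.0468). Hars and the mitochondrial Hars2 lie head to head and share 195 exon bases on opposite strands.

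Vars, which binds the elongation factor eEF1 complex, was lower in eMZB_KO than in TrB_KO. Its levels were 59.3, 53.5 and 55.3 scaled FPKM in eMZB_KO against 76.4, 76.9 and 93.1 in TrB_KO libraries, without overlap, and 56.8, 56.1 and 57.4 in eMZB_WT against 74.4, 76.9 and 56.1 in TrB_WT libraries, where the library labelled TrB_WT replicate 3 lay close to the eMZB_WT values and just below the lowest of them. The log2 change was -0.54 (SE 0.12, limma adjusted p = 0.00428) between the KO groups and -0.27 (SE 0.12, limma adjusted p = 0.107) between the WT groups. Without TrB_WT replicate 3 the WT value was -0.41 (adjusted p = 0.00743), and on the FPKM as deposited the KO value was -0.23 (adjusted p = 0.915). Whether the change differs between the genotypes was tested by the interaction, which gave -0.27 (limma adjusted p = 0.818).

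Of the mitochondrial enzymes, Fars2 fell in both genotypes and Mars2 fell between the KO groups. Fars2, which charges mitochondrial phenylalanine tRNA, had 4.01, 4.60 and 3.22 scaled FPKM in eMZB_KO against 5.08, 6.56 and 6.61 in TrB_KO libraries, and 4.16, 4.19 and 3.76 in eMZB_WT against 5.96, 6.08 and 6.51 in TrB_WT libraries. No eMZB library reached a TrB library, and the log2 changes were -0.52 (SE 0.12, limma adjusted p = 0.00743) and -0.51 (SE 0.12, limma adjusted p = 0.00835). Its direction in WT cells and its calls in both genotypes rest on the scaling. On the FPKM as deposited, the median of all genes is shifted by 0.67 between the WT groups. There Fars2 gave 0.21 (adjusted p = 0.663) in WT cells and kept its direction in KO cells, at -0.30 (adjusted p = 0.866). Without both low-Kdm1a libraries the WT value was -0.44 (adjusted p = 0.0690). Mars2, the mitochondrial methionine enzyme, had 1.47, 1.88 and 1.87 scaled FPKM in eMZB_KO against 2.98, 2.31 and 3.30 in TrB_KO libraries, and 1.85, 1.59 and 1.96 in eMZB_WT against 1.31, 2.56 and 1.73 in TrB_WT libraries. Its call between the KO groups was weak (log2 change -0.49, SE 0.16, limma adjusted p = 0.0427). It was lost with the replicate block (adjusted p = 0.0541), without both low-Kdm1a libraries (adjusted p = 0.0564), without TrB_KO replicates 1 or 3, without any 1 of the eMZB_KO libraries or without any 1 of the eMZB_WT libraries (adjusted p 0.0533 to 0.146).

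The other 15 mitochondrial enzymes passed the threshold in neither comparison. Their largest log2 changes upward were 0.36 for Yars2 between the KO groups and 0.34 for Vars2 between the WT groups, and the furthest downward was -0.63 for Lars2 between the WT groups (limma adjusted p = 0.0959). At the level of the group ranges, the alanine enzyme Aars2 lay at 1.56 to 2.33 scaled FPKM in eMZB_KO against 1.55 to 2.73 in TrB_KO, and at 1.68 to 2.04 in eMZB_WT against 1.94 to 2.40 in TrB_WT. The isoleucine enzyme Iars2 lay at 3.99 to 4.46 in eMZB_KO against 4.23 to 4.39 in TrB_KO, and at 4.06 to 4.41 in eMZB_WT against 2.72 to 4.53 in TrB_WT, and it shares 2034 exon bases with Rab3gap2 on the opposite strand. Both overlapped between the cell types in either genotype, as did the cysteine enzyme Cars2 (log2 changes 0.03 and -0.02) and the asparagine enzyme Nars2 (0.03 and 0.06). The histidine enzyme Hars2 (log2 changes -0.14 and 0.15) lay lower in eMZB_KO than in TrB_KO without overlap, at 5.09 to 5.63 against 5.81 to 6.57 scaled FPKM, and overlapped between the WT groups. The serine enzyme Sars2 gave -0.28 and -0.22, the threonine enzyme Tars2 -0.20 and -0.20, and the arginine enzyme Rars2 -0.23 and -0.09, all below 0 and none past the test. Sars2, Tars2 and Rars2 also lay lower in eMZB_KO than in TrB_KO without overlap. In that comparison 6 of the 17 mitochondrial enzymes lay lower and 1 higher without overlap, as did 2084 and 2239 of all 9842 genes. Some of the 15 passed when libraries were left out of the shared fit. Vars2 passed between the WT groups without TrB_KO replicate 2 or 3 (adjusted p = 0.0468 and 0.0495). Yars2 passed between the KO groups without the library labelled TrB_WT replicate 3 (adjusted p = 0.0431). Lars2 passed between the WT groups without TrB_KO replicate 3 (adjusted p = 0.00570).

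Set against the partner that charges the same amino acid in the other compartment, the cytosolic gene had the more positive log2 change in 16 of 18 pairs in KO and in 16 of 18 pairs in WT cells. Eprs enters with both Ears2 and Pars2, and Fars2 with both Farsa and Farsb, so the pairs are not independent. The exceptions were Vars with Vars2 and Wars with Wars2 in both genotypes. The level of Aars was 14.3 times that of Aars2 in eMZB_KO and 13.5 times in eMZB_WT, against 3.20 times in TrB_KO and 2.52 times in TrB_WT. For leucine the mitochondrial gene was the higher one in every group: the ratio of Lars to Lars2 was 0.293 in eMZB_KO and 0.289 in eMZB_WT, against 0.152 in TrB_KO and 0.0954 in TrB_WT. The partner differences were not tested.

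**Figure D3:**
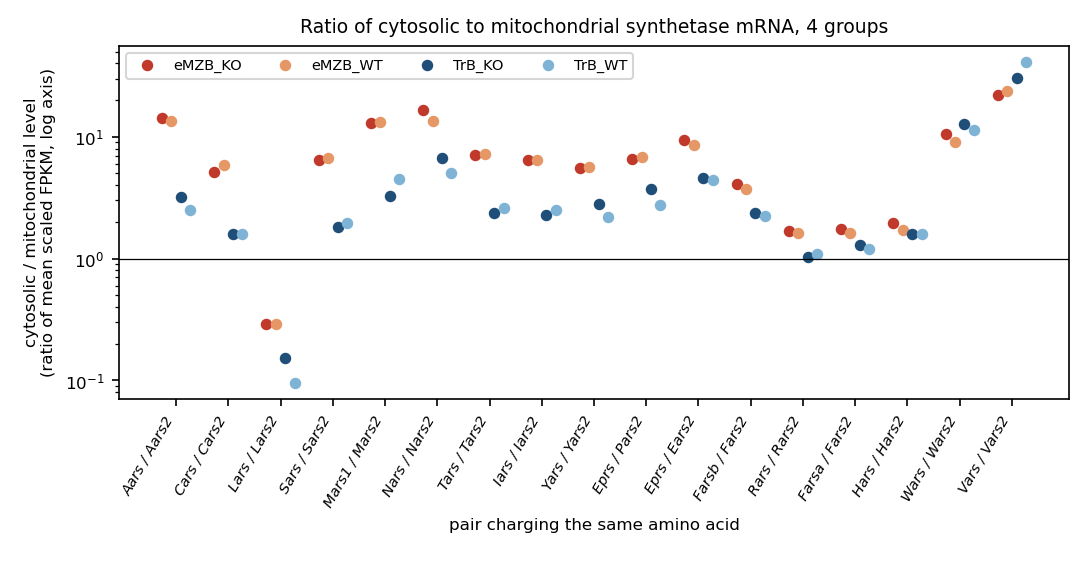
Ratio of the mean scaled FPKM of the cytosolic gene to that of its mitochondrial partner (y axis, log scale) for 17 pairs (x axis) in the 4 groups. The pairs are ordered by how much more the cytosolic gene changed between the WT groups; Aars with Aars2 lies at 14.3 and 13.5 in the eMZB groups against 3.20 and 2.52 in the TrB groups, and Lars with Lars2 lies below 1 in all 4.

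Averaged over all 12 libraries, the members spanned a wide range of FPKM, which is a level per gene length. Vars was the highest at 66.0 scaled FPKM, followed by Lars2 at 64.1 and Nars at 22.4, and the lowest were Pars2 at 1.90, Ears2 at 1.38 and Wars2 at 1.21. The order was not the same in every group: Lars2 lay above Vars in eMZB_KO (58.5 and 56.0) and in TrB_WT (87.8 and 69.1), and below it in eMZB_WT (56.7 and 56.8) and TrB_KO (53.4 and 82.1). Pars2, the mitochondrial proline enzyme, had 1.65, 2.05 and 1.97 scaled FPKM in eMZB_KO, 2.10, 1.18 and 2.08 in eMZB_WT, 1.75, 1.10 and 2.47 in TrB_KO and 2.36, 1.70 and 2.33 in TrB_WT libraries. Ears2, the mitochondrial glutamate enzyme, had 1.31, 1.42 and 1.27 in eMZB_KO, 1.35, 1.51 and 1.42 in eMZB_WT, 1.43, 1.92 and 0.932 in TrB_KO and 0.912, 1.38 and 1.70 in TrB_WT libraries. Wars2, the mitochondrial tryptophan enzyme, had 1.11, 1.38 and 1.11 in eMZB_KO, 1.49, 1.67 and 0.998 in eMZB_WT, 1.28, 1.32 and 0.597 in TrB_KO and 1.04, 1.07 and 1.41 in TrB_WT libraries. All 3 overlapped between the cell types. None of these 3 genes passed the test in any comparison.

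Lars2, the mitochondrial leucine enzyme, stood apart from the other mitochondrial enzymes, whose highest group mean was 8.93 ± 0.801 scaled FPKM (SD, n = 3) for Rars2 in TrB_KO. Lars2 had 56.7, 59.6 and 59.2 scaled FPKM in eMZB_KO against 68.2, 63.2 and 28.6 in TrB_KO libraries, and 59.98, 67.2 and 43.0 in eMZB_WT against 84.8, 103 and 75.5 in TrB_WT libraries. The lowest and the highest of its 12 values were both in TrB libraries, TrB_KO replicate 3 and TrB_WT replicate 2. The gene length implied by its FPKM values and reads is 6886 bases, while the longest Lars2 transcript in the GENCODE annotation has 3894 bases. The additional stretch was not examined, and its part in the level of Lars2 was not tested.

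Other genes of tRNA charging and translation were taken from companion lists. Beside the increase of cytosolic synthetases, 8 of 11 genes in the elongation factor list rose in KO and 7 of 11 in WT cells, where 14.2% and 14.6% of all genes rose. The list includes Eef1akmt1, which encodes a methyltransferase of eEF1A and not an elongation factor. None of the 11 fell, with median log2 changes of 0.41 and 0.36. Eef1g, a subunit of the factor that recharges eEF1A with GTP, rose by a log2 change of 0.87 in KO and 0.93 in WT cells (limma adjusted p = 1.73e-05 and 9.89e-06). Eef1b2, a second subunit of that factor, gave 0.71 and 0.78, Eef1a1, which delivers charged tRNA to the ribosome, 0.70 and 0.66, and Eef2, which drives translocation, 0.41 and 0.36. All 4 passed the test in both genotypes.

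Of 25 genes for RNA polymerase III, its factors and tRNA processing, 1 rose and 2 fell in KO (14.2% and 13.2% of all genes), and 1 rose and 3 fell in WT cells (14.6% and 12.7% of all genes), which is not far from the general share in so short a list. The gene that rose in both was Xpot, the exporter of tRNA from the nucleus, with log2 changes of 1.22 and 1.51 (limma adjusted p = 0.000183 and 3.13e-05). Gtf3c2, a TFIIIC subunit, and Maf1, a repressor of RNA polymerase III, fell in KO cells (-0.51 and -0.42), whereas Bdp1, a TFIIIB subunit, and the polymerase subunits Polr3a and Polr3b fell in WT cells (-0.46, -0.38 and -0.51). Of 10 listed genes for proofreading or indirect charging, 3 rose and 0 fell in KO (14.2% and 13.2% of all genes). In WT cells 2 rose and 2 fell (14.6% and 12.7% of all genes), again in a short list. The editing factors Aarsd1 and Dtd1 rose in both genotypes (Aarsd1 0.72 and 0.66, Dtd1 0.70 and 0.71). Gatb, an amidotransferase subunit that makes mitochondrial glutaminyl-tRNA, rose in KO cells (0.50). In WT cells its partner Qrsl1 and the formyltransferase Mtfmt fell (-0.32 and -0.40).

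Of 24 listed genes of the ATF4 pathway, 20 rose and 1 fell between the KO groups, where 14.2% of all genes rose and 13.2% fell. Between the WT groups 20 rose and none fell, where 14.6% of all genes rose and 12.7% fell, and the median log2 changes were 1.26 (KO) and 1.44 (WT). Shmt2, which makes one-carbon units from serine in mitochondria, averaged 40.1 ± 2.72 scaled FPKM in eMZB_KO and 11.7 ± 0.418 in TrB_KO, and 38.9 ± 2.42 in eMZB_WT and 10.5 ± 0.462 in TrB_WT (SD, n = 3 each). Its log2 changes were 1.70 and 1.80 (limma adjusted p = 9.80e-08 and 3.96e-08). Sesn2, a leucine sensor, rose by 2.55 and 2.16, Mthfd2, a mitochondrial folate enzyme, by 2.52 and 2.50, and the pseudokinase gene Trib3 by 2.06 and 2.20 on the log2 scale, all past the test. The gene that fell in KO cells was Eif2ak3, the eIF2 kinase PERK (-0.81, limma adjusted p = 0.0363). Of 5 growth regulators, 1 rose and 1 fell in KO, and 2 rose and 1 fell in WT cells, beside the same shares of all genes. Myc rose in both genotypes (1.34 and 1.38) and the mTORC1 subunit gene Rptor fell in both (-0.44 and -0.37). Rheb, the activator of mTORC1, rose in WT cells (0.50). Max and Mtor were the remaining 2 and were called in neither comparison.

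Of 7 plasma cell markers, 6 were listed. Their summed level was 146 to 164 scaled FPKM in eMZB_KO against 122 to 167 in TrB_KO, and 174 to 176 in eMZB_WT against 96.3 to 123 in TrB_WT. Most of the sum came from Mzb1, which encodes an endoplasmic reticulum protein also found in marginal zone B cells, with 108 to 122 in eMZB_KO against 69.9 to 85.1 in TrB_KO, and 117 to 125 in eMZB_WT against 59.1 to 69.6 in TrB_WT. Jchain, which encodes the joining chain of secreted antibodies, ran the other way in KO cells, with 0.658 to 5.27 in eMZB_KO against 17.9 to 59.2 in TrB_KO, and it overlapped in WT cells, with 9.11 to 14.5 in eMZB_WT against 0.405 to 24.2 in TrB_WT. Irf4 and Sdc1 overlapped between the WT groups too, while Prdm1 and Xbp1 were higher in eMZB_WT. In KO cells Irf4, Prdm1 and Xbp1 overlapped. Sdc1 was lower in eMZB_KO than in TrB_KO without overlap, at 0.609 to 1.15 against 1.26 to 2.93. The part of these markers in the synthetase changes was not tested. The share of reads within listed genes was higher in eMZB than in TrB libraries, apart from TrB_KO replicate 3, and its part in the synthetase changes was not tested. The FPKM as deposited leave that share uncorrected, and on them the median of all genes was shifted upward by 0.23 between the KO groups and 0.67 between the WT groups. On them 460 of all 9842 genes were called between the KO groups, in either direction. Among these were 9 members, all called higher: Aars, Cars, Gars, Iars, Mars1, Nars, Sars, Tars and Yars. Since that shift runs in the same direction, this count cannot tell the part of the share.

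Loss of LSD1 left every synthetase gene short of the threshold in either cell type. In eMZB_KO against eMZB_WT, 0 of 40 members were called, where 0.406% of all genes were, and 1 member had an unadjusted p under 0.05, beside 5.39% of all genes. In TrB_KO against TrB_WT, 0 of 40 members were called, where 0.498% of all genes were, and 6 had an unadjusted p under 0.05, beside 9.91% of all genes. The median log2 change of the members was 0.05 in eMZB and 0.09 in TrB cells. The voom test on reads recovered from the FPKM also called 0 members in both. Leaving out the libraries labelled eMZB_WT replicate 3 and TrB_WT replicate 3 gave 0 called members as well, with lowest adjusted p of 0.610 in eMZB and 0.0959 in TrB cells. A p that misses the threshold does not show equal expression, and the 95% intervals give the changes that the data allow.

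**Figure D4:**
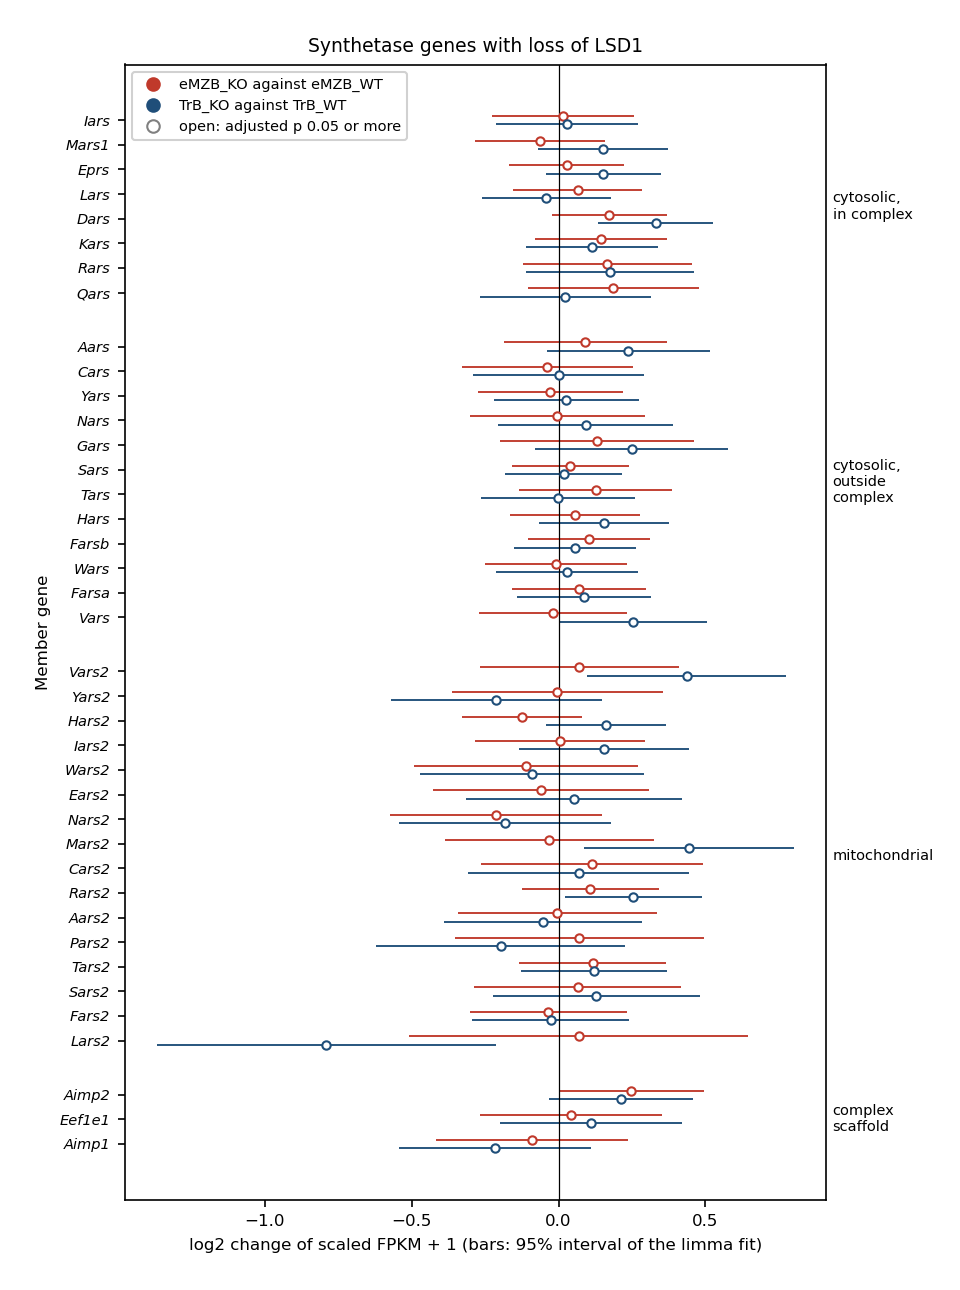
Log2 change with loss of LSD1 (x axis) of 39 genes (y axis, by location) in eMZB_KO against eMZB_WT (red) and TrB_KO against TrB_WT (blue), with 95% intervals of the limma fit. All points are open, since none has an adjusted p under 0.05; Lars2 in TrB cells lies furthest from 0, at -0.79.

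In eMZB cells the 5 members with the smallest p were Aimp2, Dars, Kars, Qars and Hars2. Aimp2 had 9.92, 10.99 and 11.1 scaled FPKM in eMZB_KO against 7.76, 9.78 and 9.06 in eMZB_WT libraries, which did not overlap, and its log2 change was 0.25 (95% interval 0.0011 to 0.49, limma adjusted p = 0.921). Dars had 18.8, 18.04 and 19.5 in eMZB_KO against 17.6, 15.3 and 16.9 in eMZB_WT libraries, again without overlap, with a log2 change of 0.17 (95% interval -0.02 to 0.37). Groups without overlap were found for 5 members upward and 2 downward, where 9.13% and 9.29% of all genes behaved so. Kars had 15.2, 14.8 and 14.8 in eMZB_KO against 13.1, 12.6 and 14.7 in eMZB_WT libraries (0.15, 95% interval -0.08 to 0.37). Qars had 5.80, 5.38 and 5.88 in eMZB_KO against 4.70, 4.21 and 5.82 in eMZB_WT libraries (0.19, 95% interval -0.11 to 0.48), and its groups overlapped. Hars2, the mitochondrial histidine enzyme, had 5.63, 5.09 and 5.63 in eMZB_KO against 6.09, 6.06 and 5.92 in eMZB_WT libraries (-0.12, 95% interval -0.33 to 0.08). For these last 4 the limma adjusted p was 0.9999.

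Across all 40 members the log2 changes with loss of LSD1 lay between -0.21 and 0.25 in eMZB cells and between -0.79 and 0.44 in TrB cells. Those of the 20 cytosolic enzymes were narrower, at -0.06 to 0.19 in eMZB and -0.04 to 0.33 in TrB cells. For Aars, the member with the largest difference between the cell types, the LSD1 change was 0.09 (95% interval -0.19 to 0.37) in eMZB and 0.24 (95% interval -0.04 to 0.52) in TrB cells. For Cars it was -0.04 (95% interval -0.33 to 0.25) in eMZB and -0.00027 (95% interval -0.29 to 0.29) in TrB cells, and for Iars 0.01 (95% interval -0.23 to 0.26) and 0.03 (95% interval -0.21 to 0.27). Each of these intervals includes 0, and their limits lie closer to 0 than the cell type changes of the same genes.

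In TrB cells the 5 members with the smallest p were Dars, Lars2, Vars2, Mars2 and Rars2. Dars had 14.3, 14.3 and 12.6 scaled FPKM in TrB_KO against 10.2, 10.1 and 11.8 in TrB_WT libraries. The KO libraries all lay above the WT libraries, with a log2 change of 0.33 (95% interval 0.13 to 0.53, limma adjusted p = 0.202). Vars2, the mitochondrial valine enzyme, had 2.73, 1.78 and 3.55 in TrB_KO against 1.67, 1.65 and 1.70 in TrB_WT libraries, and Rars2, the mitochondrial arginine enzyme, had 9.75, 8.90 and 8.15 in TrB_KO against 6.64, 7.32 and 8.02 in TrB_WT libraries. Neither overlapped, and the log2 changes were 0.44 (95% interval 0.10 to 0.77, limma adjusted p = 0.358) and 0.25 (95% interval 0.02 to 0.49, limma adjusted p = 0.440). Mars2 had 2.98, 2.31 and 3.30 in TrB_KO against 1.31, 2.56 and 1.73 in TrB_WT libraries, which overlapped (0.44, 95% interval 0.09 to 0.80, limma adjusted p = 0.371). In all, 3 members lay without overlap upward and 1 downward, where 6.14% and 4.37% of all genes did.

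Lars2 was the member whose TrB_KO libraries all lay below the TrB_WT libraries, with 68.2, 63.2 and 28.6 scaled FPKM in TrB_KO against 84.8, 103 and 75.5 in TrB_WT libraries, a log2 change of -0.79 (95% interval -1.37 to -0.21, limma adjusted p = 0.320). Its lowest value was in TrB_KO replicate 3, the library with 61.6% of reads in listed genes, where the other TrB libraries had 16.7 to 20.9%. Before scaling, the same 3 TrB_KO libraries had 43.2, 48.5 and 61.4 FPKM against 52.0, 75.9 and 46.9 FPKM in the TrB_WT libraries, so that the groups overlapped and TrB_KO replicate 3 was the highest of its group. The part of the library's read share in this value was not tested.

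The LSD1 response itself was compared between the cell types with the interaction term, the log2 change in eMZB minus that in TrB cells. It called 0 of 40 members, where 0.0102% of all genes were called, and 1 member, Lars2, had an unadjusted p under 0.05, beside 6.85% of all genes. The voom test also called 0 members. Lars2 gave 0.86 (95% interval 0.04 to 1.68, limma adjusted p = 0.704), and the next smallest p belonged to Hars2 (-0.29), Mars2 (-0.48), Vars (-0.27) and Vars2 (-0.37), each with an adjusted p of 0.736 or more. For Aars, the interval of the interaction was -0.54 to 0.25 on the log2 scale around -0.15.

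Among the companion lists, 0 of the 24 ATF4 pathway genes and 0 of 11 genes in the elongation factor list were called for loss of LSD1 in either cell type. So were 0 of 25 tRNA transcription and processing genes and 0 of 10 charging and proofreading genes. Of the growth regulators, Myc was higher in TrB_KO than in TrB_WT (log2 change 0.53, limma adjusted p = 0.0390), and none was called in eMZB cells, where Myc gave 0.49 (limma adjusted p = 0.0617). The summed level of the 4 listed of 7 macrophage and monocyte markers was higher in KO than in WT libraries of either cell type. It was 50.6 to 58.4 scaled FPKM in eMZB_KO against 13.0045 to 23.0 in eMZB_WT, and 51.1 to 64.6 in TrB_KO against 12.4 to 14.2 in TrB_WT. Lyz2, Csf1r and Fcgr1 are not among the listed genes. Most of this sum came from Ly6c2, with 45.1 to 54.2 in eMZB_KO against 9.64 to 20.5 in eMZB_WT, and 46.8 to 60.1 in TrB_KO against 5.81 to 9.10 in TrB_WT. Itgam was higher in KO libraries as well, without overlap in either cell type. Adgre1 ran the other way in TrB cells, with 0.976 to 1.61 in TrB_KO against 2.05 to 2.43 in TrB_WT, and it overlapped in eMZB cells. Cd68 overlapped in both cell types. The part of these markers in the LSD1 comparisons was not tested.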

How the data were processed

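RNA from 12 libraries of 2000 sorted mouse B cells each (3 per group) was made into unstranded SMART-Seq v4 and Nextera XT libraries, per the labels' protocols. The authors deposited 1 table of FPKM per Entrez gene. STAR (aligner) and the build mm10 are listed in the submitters' processing notes; the sources used here do not give the annotation or the counting program. Every listed gene reaches an FPKM of 1.002 or more in at least 3 libraries, so genes below that could not be examined. The FPKM are not counts, but whole reads were recovered for all 9842 genes (within 0.02 reads) and used in voom as an alternative.

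Symbols came from the RefSeq table (9833 IDs matched, 9 did not). FPKM were divided by median-of-ratios factors, and log2(value + 1) was fitted in limma 3.58.1 (R 4.3.3, two-sided, trend) with 4 group means, no covariate and 8 residual degrees of freedom, after tests on simulated data. Benjamini-Hochberg adjustment ran over all genes at 0.05. Alternatives were the FPKM as deposited, upper-quartile scaling, a pseudocount of 0.1, a group mean of at least 5, voom (limma), a replicate block, each library left out, both low-Kdm1a libraries left out, and the groups compared alone. The block in the KO groups alone was added after seeing the data.

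What replicate numbers share is not stated. Same-numbered TrB_KO and eMZB_KO libraries deviated together (correlations 0.161, 0.106 and 0.292), and the block in these groups alone treats them as pairs. TrB_KO replicate 1 and eMZB_KO replicate 2, with unlike numbers, reached 0.12. Between other groups, unlike numbers reached 0.252 (TrB_KO replicate 1 with eMZB_WT replicate 2) and 0.221 (TrB_WT replicate 2 with eMZB_WT replicate 1). Same-numbered correlations were also positive for eMZB_KO with eMZB_WT (0.0209, 0.183 and 0.219) and for TrB_WT with eMZB_WT (0.0701, 0.0155 and 0.273). They were not all positive in the remaining pairs of groups, such as TrB_KO with TrB_WT (0.0487, -0.0681 and -0.0649). The pairing is therefore an assumption. Members and lists were chosen with earlier results of these data known. Named with values in every library are the members called with the largest changes, the 3 highest and 3 lowest, and the 5 with the smallest p for LSD1 loss; complex members have ranges or full values, and other members are given by range or log2 change. The values of 1 member are not reported here, though it is in the counts.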

Additional observations from a re-analysis of the deposited data

How the results depend on the processing

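The increases of Aars, Cars, Gars, Iars, Mars1, Nars, Sars, Tars and Yars held their calls in all 20 alternatives in WT and all 21 in KO cells. Those of Dars, Eprs, Kars and Lars held in WT cells and were lost in KO cells on the FPKM as deposited. No member was called for LSD1 loss or the interaction under any alternative, the lowest adjusted p being 0.336 in eMZB, 0.0762 in TrB and 0.388 for the interaction.

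The FPKM as deposited shift the median of all genes by 0.06 (eMZB LSD1), 0.52 (TrB LSD1), 0.23 (eMZB_KO against TrB_KO), 0.67 (eMZB_WT against TrB_WT) and -0.46 (interaction). On them the members' medians were 0.114, 0.617, 0.423, 0.874 and -0.507, against 0.0482, 0.0890, 0.147, 0.151 and -0.0267 after scaling. Calls on them were 15, 19 and 460 genes for the first 3 and 15 for the interaction, against 40, 49, 2695 and 1. Members higher numbered 9 in KO, members lower 0 in KO and 0 in WT cells, and Fars2 turned to 0.208 in WT cells.

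For LSD1 loss in TrB cells, voom called 21 genes and the groups compared alone 9, and the median was 0.0344 with upper-quartile scaling and 0.154 without both low-Kdm1a libraries. For LSD1 loss in eMZB cells, 23 genes were called without both low-Kdm1a libraries and 65 with the groups alone. Between the WT groups, 2 members were lower with upper-quartile scaling, with the replicate block (Fars2 and Lars2) and with the groups alone, and the median was 0.211 with a pseudocount of 0.1, 0.456 with the filter and 0.253 without both low-Kdm1a libraries. Between the KO groups the median was 0.428 with the filter and 0.247 with voom, and the replicate block gave 15 members higher and 2 lower, with Mars2 lost. For the interaction, the filter left 0 genes called and the fit without both low-Kdm1a libraries 2, and the upper-quartile median was 0.0195. The replicate block changed no other member's call between the KO groups. The causes were not tested.

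Without both low-Kdm1a libraries, 16 members were higher and 2 lower in KO, and 15 higher and 1 lower in WT cells. Leaving out 1 library at a time gave 14 to 16 higher and 2 to 3 lower in KO, and 14 to 17 higher and 1 to 2 lower in WT cells. The medians then ran over 0.00324 to 0.0667 (eMZB LSD1), 0.0342 to 0.154 (TrB LSD1), 0.147 to 0.216 (KO), 0.137 to 0.241 (WT) and -0.0855 to 0.00887 (interaction). All genes called ran over 16 to 52, 26 to 54, 1977 to 3082, 1944 to 3407 and 1 to 5 in the same order, with the 16 reached without eMZB_KO replicates 1 or 3 or the library labelled eMZB_WT replicate 3, the 26 without TrB_WT replicate 1, and the 5 without the library labelled TrB_WT replicate 3.

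Low genes limit precision: Pars2 rests on as few as 27 reads in a library. With 3 libraries a group, small LSD1 changes could not be resolved.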
